A study of Mus musculus with 18 samples.

Results

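The genes described here are the immunoglobulin gene segments together with Jchain, followed through 18 RNA-seq libraries of mouse bone marrow stem and progenitor cells. They are the constant, variable, diversity and joining segments, by their annotated biotype, plus Jchain. They were selected on their measured reads, at least 10 summed over the 18 libraries for a segment, which gave 86 of the 29437 genes in the table. The 86 comprised 11 constant segments (7 heavy, 1 kappa and 3 lambda), 63 variable segments (40 heavy, 21 kappa and 2 lambda), 10 joining segments (4 heavy, 4 kappa and 2 lambda), 1 diversity segment and Jchain. A further 40 segments, 36 variable and 4 diversity, had fewer reads and together held 127 reads. Ighv1-54, Ighv1-63 and Ighv5-4 were just inside the threshold with 10 reads each, while Ighv1-53 and Ighv1-67 with 9 reads and Igkv14-100 with 8 reads were just outside it.

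The mice, aged 10 weeks, were knockout (KO) for Helios, the zinc finger protein of the Ikaros family encoded by Ikzf2, or wild type (WT), with 3 animals per genotype. The sources used here do not say which part of Ikzf2 the allele lacks or whether every tissue lacks it. From each animal 3 populations were sorted among lineage-negative, Sca1-positive and Kit-positive cells, so that 6 groups have 3 libraries each. The stem cell gate (LT-HSC, long-term hematopoietic stem cells) took CD48-negative and CD150-positive cells. The multipotent progenitors were CD48-positive and CD150-negative, either without Flt3 (MPP3, biased to myeloid output) or with Flt3 (MPP4, biased to lymphoid output). Libraries are named by population, genotype and the number of the mouse.

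An antibody is built of heavy chains paired with light chains, and the light chains are of the kappa or the lambda kind. In B cell precursors the RAG recombinase joins a variable segment to a joining segment, with a diversity segment between them in the heavy chain, and the joined exon is spliced to a constant segment. Heavy-chain segments are also known to be transcribed unrearranged before they are joined. Mature B cells carry immunoglobulin on the surface, and plasma cells secrete it in very large amounts, with the J chain linking the subunits of IgM and of dimeric IgA.

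The coding exons of 5 variable segments are shown because the values below turn on them. Ighv1-77, Ighv1-74 and Ighv1-82 held the most variable reads of MPP4 among the segments of the Ighv1 family, and Ighv7-1 and Igkv15-103 held many of the variable reads of 3 MPP3 libraries. The sequences are those of the GENCODE M21 transcripts (GRCm38), each the last coding exon, or its last 300 bases where it is longer, read 5′ to 3′ on the strand of the gene. Ighv1-77 lies at chr12:115861867-115862160, Ighv1-74 at chr12:115802648-115802947, Ighv1-82 at chr12:115952538-115952831 and Ighv7-1 at chr12:113896408-113896707, all on the minus strand, and Igkv15-103 lies at chr6:68437628-68437925 on the plus strand. Capitals mark the last in-frame cysteine codon and all that follows it, where the variable segment enters the third hypervariable loop.
Ighv1-77: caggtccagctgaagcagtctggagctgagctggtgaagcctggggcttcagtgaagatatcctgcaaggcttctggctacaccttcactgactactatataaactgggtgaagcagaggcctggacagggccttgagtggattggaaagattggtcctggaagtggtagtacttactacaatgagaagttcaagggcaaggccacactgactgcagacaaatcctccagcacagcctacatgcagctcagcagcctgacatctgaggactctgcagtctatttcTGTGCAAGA
Ighv1-74: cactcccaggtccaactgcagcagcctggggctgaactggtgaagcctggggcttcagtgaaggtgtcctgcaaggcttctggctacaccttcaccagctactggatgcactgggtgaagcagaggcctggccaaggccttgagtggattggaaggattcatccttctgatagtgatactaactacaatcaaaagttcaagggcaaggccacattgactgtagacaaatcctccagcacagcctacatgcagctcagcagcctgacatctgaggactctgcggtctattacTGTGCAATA
Ighv1-82: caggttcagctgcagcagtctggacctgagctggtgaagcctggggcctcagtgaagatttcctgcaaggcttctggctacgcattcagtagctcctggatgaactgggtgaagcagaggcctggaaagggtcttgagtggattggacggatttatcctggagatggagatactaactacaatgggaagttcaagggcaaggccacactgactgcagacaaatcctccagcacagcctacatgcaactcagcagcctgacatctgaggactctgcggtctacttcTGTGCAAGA
Ighv7-1: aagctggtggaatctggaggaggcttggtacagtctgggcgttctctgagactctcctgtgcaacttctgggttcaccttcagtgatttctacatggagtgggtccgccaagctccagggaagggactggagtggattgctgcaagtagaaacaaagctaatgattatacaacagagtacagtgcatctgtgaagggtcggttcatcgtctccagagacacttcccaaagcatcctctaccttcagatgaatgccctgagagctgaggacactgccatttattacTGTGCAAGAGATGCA
Igkv15-103: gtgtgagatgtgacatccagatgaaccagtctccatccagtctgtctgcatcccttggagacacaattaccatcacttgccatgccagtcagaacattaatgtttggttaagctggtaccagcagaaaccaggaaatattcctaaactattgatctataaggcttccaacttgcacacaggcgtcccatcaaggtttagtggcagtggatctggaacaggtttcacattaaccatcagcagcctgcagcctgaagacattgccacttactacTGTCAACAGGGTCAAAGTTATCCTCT

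The whole exons of Ighv1-77 and Ighv1-82 were 89.8% identical in a global alignment. Ighv1-74 was 85.8% identical to each of them. Ighv7-1 shared 55.2% to 56.9% of its bases with the 3 Ighv1 exons. Likeness of this kind bears on the counting. Of all stretches of 50 bases in the transcripts of Ighv1-77, 37.3% occurred word for word in a transcript of another gene, against 40.3% for Ighv1-74 and 14.8% for Ighv1-82. The same share was 0% for Ighv7-1, Igkv15-103, Ighm, Igkc and Jchain. In 49 of the 63 variable members it was over 10%, so reads of those segments may have been split between copies and the value of a single segment is uncertain.

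The heavy-chain diversity and joining segments are shown because all 5 had reads in every MPP4 library. They lie on the minus strand of chromosome 12 (GRCm38): Ighd4-1 at chr12:113430528-113430538, Ighj1 at chr12:113429781-113429833, Ighj2 at chr12:113429468-113429515, Ighj3 at chr12:113429085-113429132 and Ighj4 at chr12:113428514-113428567. Capitals mark the bases TGGGG, which hold the tryptophan codon shared by the heavy joining segments, and Ighd4-1 has none.
Ighd4-1: ctaactgggac
Ighj1: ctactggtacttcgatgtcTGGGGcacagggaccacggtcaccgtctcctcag
Ighj2: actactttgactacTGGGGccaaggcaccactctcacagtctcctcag
Ighj3: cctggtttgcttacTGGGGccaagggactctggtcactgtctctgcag
Ighj4: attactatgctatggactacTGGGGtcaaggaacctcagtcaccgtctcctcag

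Total counts ran from 21053050 to 45410959 per library, and 17362 to 20272 genes had reads. The 6 libraries of the mice numbered 1 in each genotype detected 17362 to 18896 genes, and the others 19185 to 20272. Ikzf2 stood at 3.55 to 24.0 CPM (reads scaled to a common library size) in the 9 KO libraries, against 27.1 to 65.6 CPM in the 9 WT libraries. The gate genes followed the sort: Slamf1, which encodes CD150, had 53.7 to 75.1 CPM across LT-HSC libraries, 2.09 to 8.61 CPM across MPP3 libraries and 0 to 1.53 CPM across MPP4 libraries. Flt3 had 57.1 to 114 CPM across LT-HSC libraries, 553 to 876 CPM across MPP3 libraries and 2705 to 3640 CPM across MPP4 libraries.

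The 86 genes took 537265 reads in all, spread very unevenly. In LT-HSC they held 248, 191 and 72 reads in the KO libraries, against 91, 293 and 641 reads in the WT libraries. In MPP3 they held 115419, 3531 and 3272 reads in KO libraries, against 122072, 120822 and 5316 reads in WT libraries. In MPP4 they held 32499, 18499 and 17440 reads in KO libraries, against 37028, 33766 and 26065 reads in WT libraries. LT-HSC were low throughout, MPP4 were high in every animal, and MPP3 fell into 3 high libraries (KO 1, WT 1 and WT 2) and 3 low ones. The high MPP3 libraries come from both genotypes. They are called Igkc-rich below, a name given after the values were seen, and the main results on MPP3 are given with and without them. In bulk RNA of sorted cells, fewer cells of a type and less RNA per cell cannot be told apart.

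Ighm, at chr12:113418558-113422730, encodes the constant region of the mu heavy chain of IgM and was the most abundant of the genes, with 5.44, 4.41 and 2.24 CPM in the LT-HSC KO libraries, against 1.56, 8.004 and 10.2 CPM in the WT libraries. In MPP3 it was at 1559, 71.8 and 49.997 CPM in KO libraries, against 1942, 2431 and 150 CPM in WT libraries. In MPP4 it was at 1135, 792 and 638 CPM in KO libraries, against 1251, 1032 and 864 CPM in WT libraries. The 6 MPP4 libraries lay within a narrow band and far above LT-HSC, whereas MPP3 spanned values on both sides of that band. The tests used edgeR's quasi-likelihood fit, with p-values adjusted by Benjamini-Hochberg over the 16325 genes that passed a filter on low counts, and 0.05 as the threshold. Averaged over the genotypes, Ighm was higher in MPP4 than in LT-HSC (log2 fold change 7.49 ± 0.95, SE; edgeR adjusted p = 9.78e-06) and MPP3 exceeded LT-HSC likewise (7.45 ± 0.95, edgeR adjusted p = 2.27e-05). Between MPP4 and MPP3 the difference was 0.04 with all libraries (edgeR adjusted p = 0.999). Without the 3 Igkc-rich libraries Ighm was higher in MPP4 than in MPP3, by 3.31 (edgeR adjusted p = 0.000695), and the excess of MPP3 over LT-HSC was 4.19.

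Ighd, at chr12:113406604-113416324, encodes the delta constant region of IgD and lies next to Ighm. It had 587, 394 and 323 reads in MPP4 KO libraries, against 668, 531 and 384 reads in MPP4 WT libraries. In MPP3 it had 14, 45 and 12 reads in KO libraries, against 28, 8 and 29 reads in WT libraries. In LT-HSC a single read was counted over the 6 libraries, in KO 1. Unlike Igkc, Ighd was no higher in the Igkc-rich MPP3 libraries, which had 14, 28 and 8 reads, than in the other MPP3 libraries, which had 45, 12 and 29 reads. Ighd was higher in MPP4 than in MPP3 (log2 4.41 ± 0.43, edgeR adjusted p = 5.58e-06; 4.09 without the Igkc-rich libraries). Against LT-HSC it was higher in MPP4 (edgeR adjusted p = 1.07e-08) and in MPP3 (edgeR adjusted p = 1.03e-05). With 1 read in LT-HSC the ratios were 3185 for MPP4 (95% exact counting interval 571 to 125850) and 149 for MPP3 (26.4 to 5942). Ighd held 1.90% to 2.26% of the reads of Ighd and Ighm together in MPP4 KO libraries, against 1.59% to 1.95% in MPP4 WT libraries.

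Of the constant segments used after class switching, which give IgE, IgA and the IgG classes, Ighe and Ighg2b had most of their reads in MPP4, and Igha, Ighg2c and Ighg3 in 1 or 2 MPP3 libraries. Ighe had 8, 12 and 36 reads in MPP4 KO libraries, against 83, 43 and 38 reads in MPP4 WT libraries. Ighe was higher in MPP4 than in MPP3 (log2 4.62 ± 1.23, edgeR adjusted p = 0.0287), where 34 of its 42 reads were in WT 1. Without the Igkc-rich libraries the call was lost, at 5.07 (edgeR adjusted p = 0.0863), as it was with the libraries numbered 2 and 3 alone (edgeR adjusted p = 0.0573). Igha had 3791 reads in MPP3 WT 1 and 244 in MPP3 KO 3, and at most 3 in any other library. Ighg2c had 2804 reads in MPP3 WT 2, and at most 4 in any other library. Ighg3 had 454 reads in MPP3 KO 1 and 1137 in MPP3 WT 1. Ighg2b had 21, 0 and 9 reads in MPP4 KO libraries, against 7, 14 and 0 reads in MPP4 WT libraries, and 9 reads in MPP3 WT 1. Each Igkc-rich library thus had its own leading switched class: Ighg3 in KO 1, Igha in WT 1 and Ighg2c in WT 2. Switched segments made up 1.004% of the heavy constant reads in MPP3 KO 1, against 9.15% in WT 1 and 4.62% in WT 2. In MPP4 the share was 0.0858% to 0.28% in KO libraries, against 0.157% to 0.288% in WT libraries.

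Igkc, the single kappa constant segment, at chr6:70726435-70726966, parted MPP3 from MPP4 in the direction opposite to Ighd. It had 34678, 367 and 839 reads in MPP3 KO libraries, against 31359, 25829 and 566 reads in MPP3 WT libraries. In MPP4 it had 30, 6 and 1 reads in KO libraries, against 36, 9 and 4 reads in WT libraries. In LT-HSC it had 20, 9 and 1 reads in KO libraries, against 18, 37 and 73 reads in WT libraries. Every MPP3 library lay above every library of MPP4 and of LT-HSC. Igkc was lower in MPP4 than in MPP3 (log2 -10.03 ± 1.37, edgeR adjusted p = 8.35e-05) and still lower without the Igkc-rich libraries (-5.32). In MPP3 it exceeded LT-HSC (9.65 ± 1.34, edgeR adjusted p = 4.94e-05; 4.97 without the Igkc-rich libraries). Neither difference passed with limma's voom, where the adjusted p was 0.459 for MPP4 against MPP3 and 0.290 for MPP3 against LT-HSC.

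Set per kilobase of transcript, the scale on which genes can be compared, the authors' normalized signal of Igkc was 59324 in MPP3 KO 1, 61587 in MPP3 WT 1 and 53718 in MPP3 WT 2, above that of Ighm at 25706, 32284 and 40162. In MPP4 the order was the reverse: Ighm stood at 18759, 13175 and 10530 per kilobase in KO libraries and 20798, 17114 and 14286 in WT libraries, while Igkc was at 1.97 to 55.6 in KO libraries and 7.21 to 66.8 in WT libraries. MPP4 libraries thus held mu transcripts with little kappa. Of the reads of Igkc and Ighm together, Igkc took 12.0% to 43.5% in the 6 MPP3 libraries, and 0.00622% to 0.107% in the 6 MPP4 libraries. Exact and Wilson intervals and floors here cover counting error only, since the reads carry no molecular identifiers.

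The lambda constant segments were also found in MPP3. Iglc1 had 116, 380 and 0 reads in MPP3 KO libraries, against 23, 18 and 12 reads in MPP3 WT libraries. Iglc3 had 1036 of its 1078 reads in MPP3 WT 1, and Iglc2 had 83, 3 and 0 reads in MPP3 KO libraries, against 94, 123 and 1 reads in MPP3 WT libraries. All 3 were lower in MPP4 than in MPP3 (edgeR adjusted p = 0.00701 for Iglc1, 0.0212 for Iglc2 and 0.0261 for Iglc3). None of the 3 passed with voom (adjusted p = 0.0873, 0.114 and 0.250). Without the Igkc-rich libraries Iglc1 stood at -7.63 (edgeR adjusted p = 0.0677), and Iglc2 and Iglc3 did not pass the filter on low counts. Iglc3 had 0 reads in MPP4, which makes it at least 372-fold lower there, taking 3 reads in the 6 MPP4 libraries as the floor. KO 2 was the library richest in Iglc1 although it was not among the Igkc-rich ones.

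Jchain encodes the small protein that links secreted IgM and IgA subunits and marks antibody-secreting cells. It had 4366, 120 and 339 reads in MPP3 KO libraries, against 6329, 5801 and 56 reads in MPP3 WT libraries. In MPP4 it had 15, 21 and 7 reads in KO libraries, against 32, 1 and 9 reads in WT libraries. In LT-HSC it had 29, 25 and 11 reads in KO libraries, against 5, 23 and 0 reads in WT libraries. The high libraries were those high in Igkc, and in the other 3 MPP3 libraries Jchain still exceeded its level in MPP4. Jchain was lower in MPP4 than in MPP3 (log2 -7.45 ± 1.18, edgeR adjusted p = 0.000342) and in MPP3 it exceeded LT-HSC (7.54 ± 1.18, edgeR adjusted p = 0.000161). Without the Igkc-rich libraries neither passed: -2.90 (edgeR adjusted p = 0.144) and 2.92 (edgeR adjusted p = 0.0649). The fall in MPP4 against MPP3 did not pass with voom either, which called 0 members lower there. The octamer motif of immunoglobulin promoters, searched on both strands, had no match in the 300 bases around the Jchain start in RefSeq's table, and 1.74% of the 32851 promoters there had one.

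Among the joining segments, Ighj1 held the most reads, and its pattern differed from that of Ighj4. Ighj1 had 483, 149 and 199 reads in MPP4 KO libraries, against 439, 362 and 284 reads in MPP4 WT libraries, and 556, 10 and 11 reads in MPP3 KO libraries, against 457, 263 and 7 reads in MPP3 WT libraries. Ighj4 had 49, 27 and 25 reads in MPP4 KO libraries, against 56, 36 and 24 reads in MPP4 WT libraries, and 106, 1 and 1 reads in MPP3 KO libraries, against 631, 1367 and 2 reads in MPP3 WT libraries. Ighj1 thus led among the heavy joining segments in every MPP4 library, with 74.0% to 83.4% of their reads in KO libraries and 79.4% to 84.0% in WT libraries, while Ighj4 led in MPP3 WT 1 and WT 2. The diversity segment Ighd4-1, a stretch of 11 bases, had 13, 10 and 5 reads in MPP4 KO libraries, against 18, 21 and 13 reads in MPP4 WT libraries. Elsewhere it had a single read, in MPP3 WT 3. Ighd4-1 was higher in MPP4 than in MPP3 (edgeR adjusted p = 0.00449), at a ratio of 80.4 (95% exact counting interval 14.0 to 3213). That call was lost without the Igkc-rich libraries (log2 5.17, edgeR adjusted p = 0.119) and with the libraries numbered 2 and 3 alone (5.42, edgeR adjusted p = 0.0673). The kappa joining segments were found in MPP3: Igkj1 had 235, 0 and 0 reads in MPP3 KO libraries, against 299, 106 and 18 reads in MPP3 WT libraries, and at most 3 reads in any MPP4 library.

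**Figure D1:**
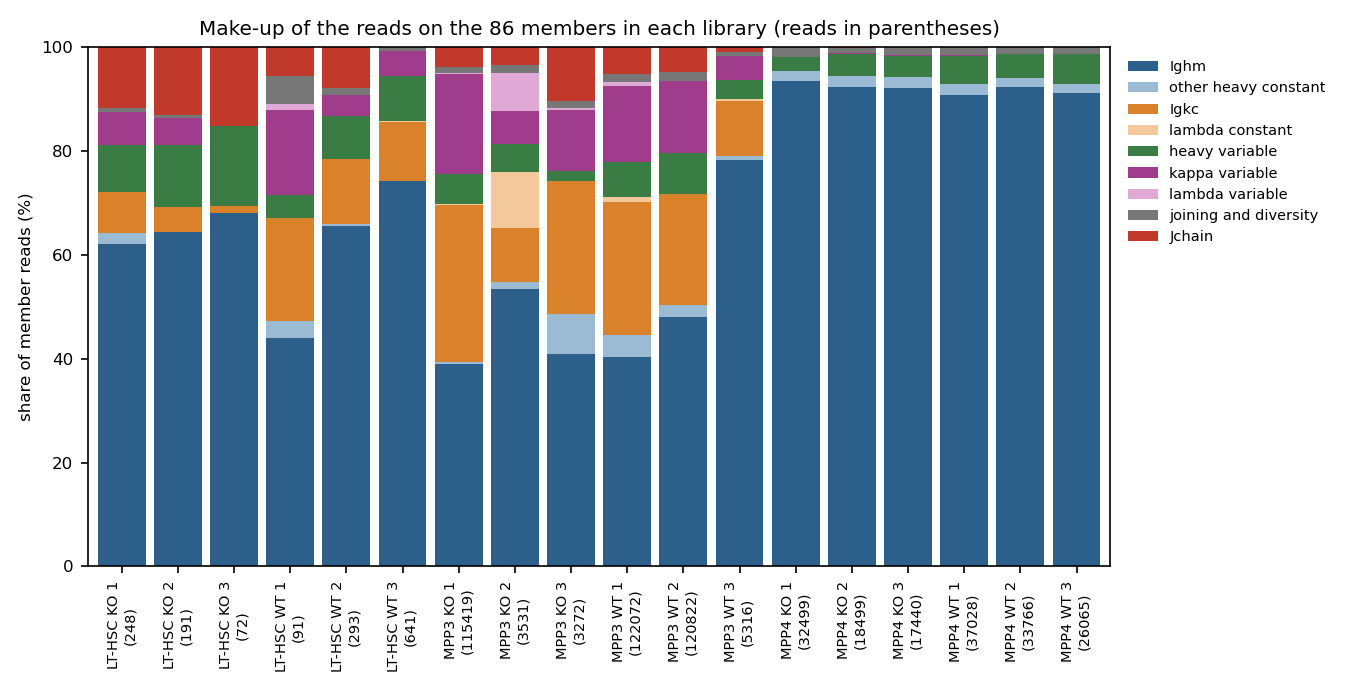
Percent of all reads of the 86 genes that fell in each of 9 classes of segment, for each of the 18 libraries, with the number of reads in parentheses. MPP4 libraries consist almost wholly of mu constant reads with a thin share of heavy variable ones, while MPP3 libraries hold large shares of kappa constant and variable reads.

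MPP4 and MPP3 differed in which variable segments held the reads. The variable segments made up 2.71%, 4.29% and 4.16% of the reads of the 86 genes in MPP4 KO libraries, against 5.43%, 4.505% and 5.77% in MPP4 WT libraries, and 8.33% to 25.2% in the 6 MPP3 libraries. In MPP4, heavy segments held 98.1% to 99.2% of the variable reads in KO libraries and 98.8% to 99.3% in WT libraries. Within the heavy variable reads the Ighv1 family held 97.6% to 98.2% in MPP4 KO libraries and 97.5% to 98.8% in MPP4 WT libraries. In the Igkc-rich MPP3 libraries the Ighv1 family held 3.12% of the heavy variable reads in KO 1, against 12.2% in WT 1 and 7.32% in WT 2. A low share was not a trait of all MPP3 libraries. In those low in Igkc it reached 84.1% in KO and 28.1% in WT, on as few as 63 heavy variable reads in KO and 192 in WT. Heavy segments held 13.9% to 28.3% of the variable reads in MPP3 KO libraries, against 30.8% to 43.3% in MPP3 WT libraries, the rest being kappa and lambda.

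The leading segments differed among most MPP3 libraries, with KO 1 and WT 1 alike in theirs. Igkv15-103 led KO 1 with 52.9% of the variable reads and WT 1 with 30.8%, and Igkv5-39 led WT 2 with 28.4%. Among the libraries low in Igkc, the lambda segment Iglv1 led KO 2 with 39.2%, Igkv9-120 led KO 3 with 84.1% and Igkv10-96 led WT 3 with 54.4%. The leading heavy segments were Ighv7-1 in KO 1 and WT 1 and Ighv6-3 in WT 2. Ighv12-3 led the heavy segments of KO 2, Ighv1-26 those of KO 3 and Ighv4-1 those of WT 3. The effective number of segments, the exponential of the Shannon entropy of their shares, was 5.0 in KO 1, 4.3 in KO 2 and 2.1 in KO 3, against 10.5 in WT 1, 5.9 in WT 2 and 4.0 in WT 3. In MPP4 it was 8.8 to 10.3 over the 6 libraries.

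Igkv15-103 had 15390, 2 and 0 reads in MPP3 KO libraries, against 8320, 7222 and 0 reads in MPP3 WT libraries. Ighv7-1 had 5449, 4 and 0 reads in MPP3 KO libraries, against 4217, 3504 and 0 reads in MPP3 WT libraries. Igkv5-39 had 901, 1 and 0 reads in MPP3 KO libraries, against 3721, 7429 and 0 reads in MPP3 WT libraries. All 3 were high in both WT 1 and WT 2 and all but absent from the MPP3 libraries low in Igkc. They were not private to one animal, since KO 1, WT 1 and WT 2 are different mice. Outside MPP3, Igkv15-103 had 12 reads in LT-HSC KO 1, 11 in LT-HSC WT 1, 10 in MPP4 KO 1 and 12 in MPP4 WT 1, the animals in which its MPP3 reads were highest, and 4 or fewer in every other library of LT-HSC and MPP4. Whether these reads came from the cells of the named library was not tested.

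Few segments were shared beyond those. Counting a segment as present at 10 reads, 38 variable segments were present in at least 1 of the 3 Igkc-rich libraries, and 26 of them in exactly 1, 7 in exactly 2 and 5 in all 3 (Igkv15-103, Igkv5-39, Ighv7-1, Ighv6-3 and Iglv1). In MPP4, 20 were present in at least 1 library and 8 in all 6: Ighv1-23, Ighv1-56, Ighv1-74, Ighv1-75, Ighv1-76, Ighv1-77, Ighv1-81 and Ighv1-82. Of these 8, 2 were also present in an Igkc-rich library. The few kappa reads of MPP4 were led by Igkv14-111, with 11 reads in KO 2 and 6 in KO 3, against 9 in WT 2 and 10 in WT 3, and by Igkv15-103 in the mice numbered 1. In LT-HSC 4 were present in any library. They were led by 28 reads of Igkv6-23 in WT 3, while the heavy segment Ighv6-3 had 5, 14 and 9 reads in LT-HSC KO libraries, against 0, 15 and 22 reads in LT-HSC WT libraries.

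The same contrast held over all the members. A single library held at least 90% of the reads of 25 of the 86, among them 20 of the 40 variable segments that were highest in an MPP3 library and none of the 19 that were highest in an MPP4 library. By highest library, 21 members peaked in MPP3 WT 1, 18 in MPP3 WT 2 and 17 in MPP3 KO 1. Igkv12-44, for one, had all of its 1280 reads in MPP3 KO 1, while the kappa segment Igkv14-126 had 2874 reads in MPP3 KO 1 and 1723 in MPP3 WT 1.

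**Figure D2:**
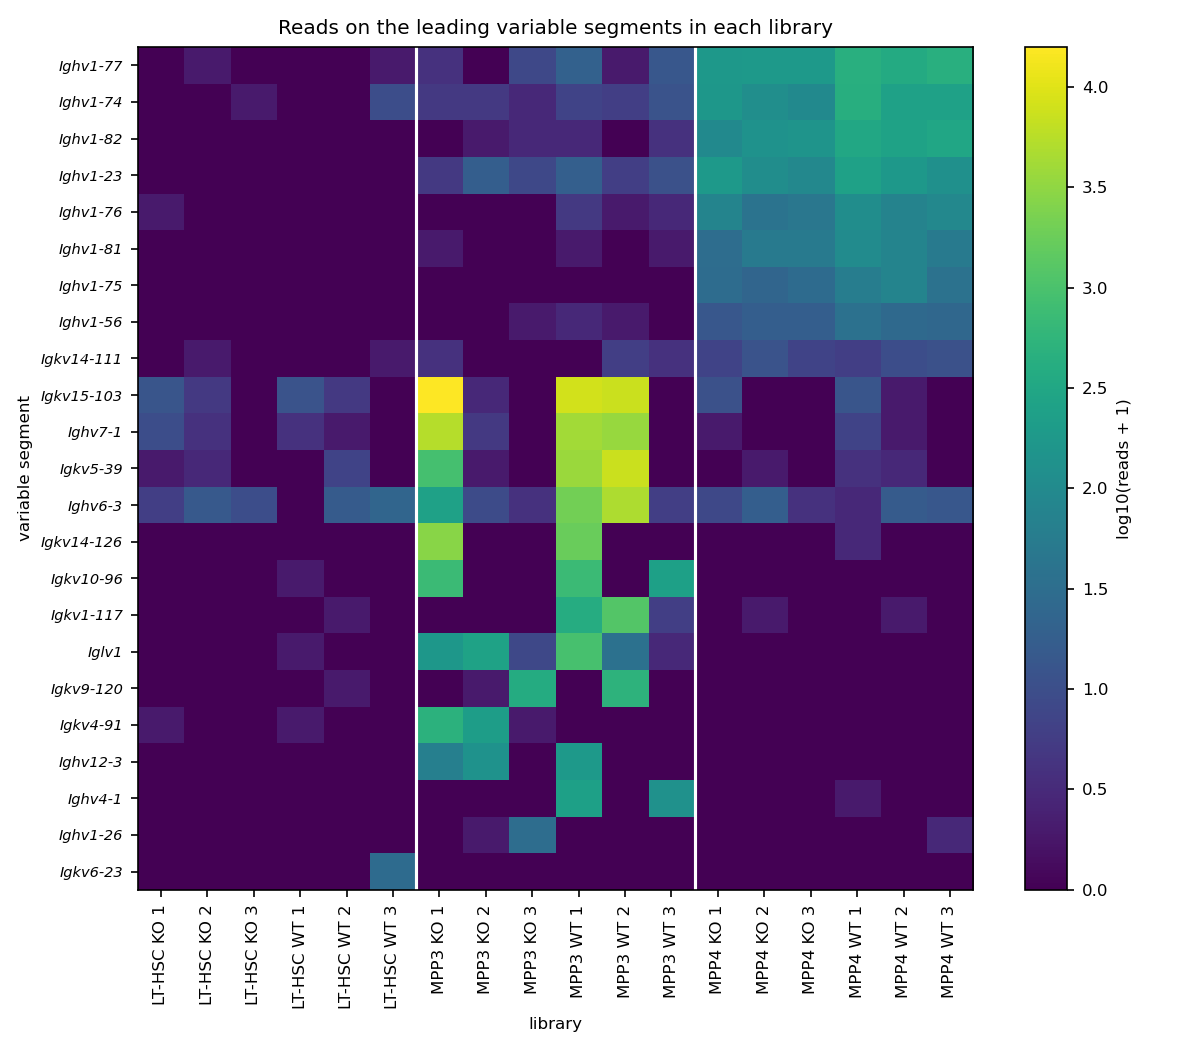
Reads of 23 leading variable segments in each of the 18 libraries, as log10 of reads plus 1, with KO libraries left of WT libraries in each population. The Ighv1 segments are filled in all 6 MPP4 libraries, except Ighv1-26, which had 31 reads in MPP3 KO 3. Most other segments are filled in single MPP3 libraries or in a few of them. Igkv14-111 had 5 to 11 reads in each MPP4 library, and Igkv6-23 had reads in LT-HSC WT 3 alone.

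The split between the Ighv1 family and the other heavy segments was also one of position. The 26 Ighv1 members start 1083 to 2570 kb from Ighj1, the joining segment nearest to the variable segments, and the other 14 heavy variable members 168 to 2218 kb from it. Summed over the 6 MPP4 libraries the Ighv1 members had 7214 reads and the others 135. Summed over the 3 Igkc-rich MPP3 libraries the Ighv1 members had 1912 reads and the others 22533. The 8 segments present in all MPP4 libraries lie 1335 to 2523 kb from Ighj1, that is, among the distal segments. Family and distance go together only in part. The Ighv1 segments Ighv1-5, Ighv1-9 and Ighv1-18, at 1083, 1154 and 1253 kb, had 0 reads in MPP4. In the Igkc-rich MPP3 libraries they had 339, 483 and 33. Ighv8-6 and Ighv8-12, of another family but at 1736 and 2218 kb, had 12 and 29 reads in MPP4, against 9 and 0 in the Igkc-rich libraries. Whether family or distance goes with the reads was not tested.

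**Figure D3:**
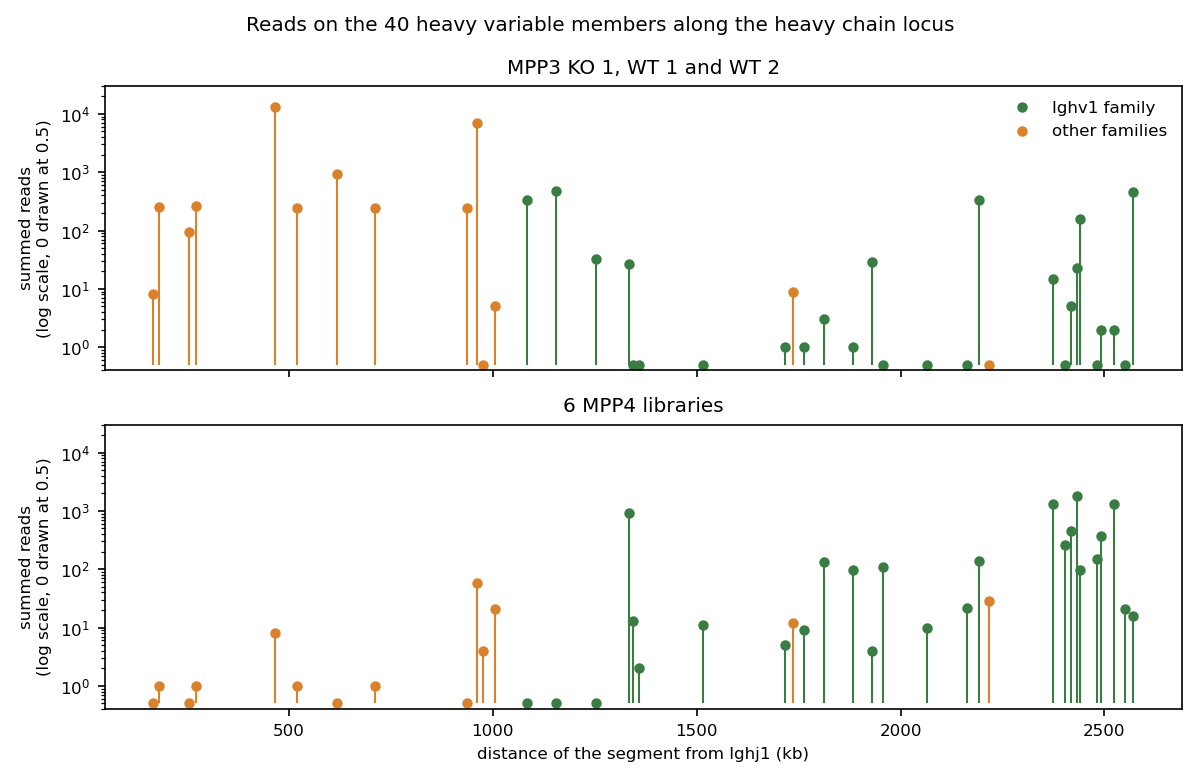
Summed reads (log axis, 0 drawn at 0.5) of the 40 heavy variable segments against their distance from Ighj1 in kb, in the 3 Igkc-rich MPP3 libraries (upper panel) and in the 6 MPP4 libraries (lower panel), with the Ighv1 family in green and the other families in orange. In MPP4 the reads lie with the distal Ighv1 segments, and in the Igkc-rich MPP3 libraries with the other families, Ighv7-1 and Ighv6-3 foremost.

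The comparison between populations asks which of the genes the progenitors express beyond the stem cells. Of the 86, 37 passed the filter on low counts, namely 7 constant, 20 variable, 8 joining and the diversity segment, and Jchain. A segment that passed through 1 high group alone had to differ from the others, so the counts of called members below describe them and support nothing. In MPP4 against LT-HSC, 21 of the 37 were higher by edgeR's adjusted p (19% of all genes tested were higher) and 0 were lower (18.6% of all genes). No member was lower at an unadjusted p either (22.8% of all genes), nor with DESeq2 (20.9%) or voom (21.2%), which called 22 (18.8%) and 20 (22.5%) higher. The 21 were 3 constant segments (Ighm, Ighd and Ighe), 13 variable, 4 joining and the diversity segment, with a median log2 difference over the tested members of 6.74, against 0.00 over all genes. The median was 5.70, over the 28 members that then had a value, where members with 0 reads in a group took the bound from 3 reads. The constants of the light chains and Jchain were not among them.

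In MPP3 against LT-HSC, 27 of the 37 were higher (16.1% of all genes) and 0 were lower (14.6% of all genes). No member was lower at an unadjusted p (19.8% of all genes), with DESeq2 (18%) or with voom (18.3%). The 27 were 6 constant segments, 12 variable, all 8 joining and Jchain. The median over the tested members was 6.84, or 6.85 with bounds over the 33 with a value, against -0.01 over all genes. Without the Igkc-rich libraries, where 18480 genes passed the filter, 9 were higher (8.61% of all genes), namely Ighm, Ighd, Igkc, Iglc1, Ighj1, Ighv1-23, Ighv1-77, Ighv1-82 and Iglv1, and 0 lower (7.15%). Limma's voom called 11 (19.2% of all genes) and DESeq2 26 (16.5%). Ighv1-23 had 0 reads in LT-HSC and 61 in MPP3, which makes it at least 22.6-fold higher (edgeR adjusted p = 5.43e-05), and its reads were spread over all 6 MPP3 libraries at 4 to 18 each.

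In MPP4 against MPP3, 14 of the 37 were higher (5.42% of all genes) and 14 lower (5.57% of all genes). The higher ones were Ighd, Ighe, the diversity segment and 11 variable segments, all of them of the Ighv1 family. The lower ones were Igkc, Iglc1, Iglc2, Iglc3, Jchain, 3 kappa joining segments and 6 variable segments, Igkv5-39, Ighv7-1, Igkv15-103, Ighv6-3, Iglv1 and Igkv10-96. Without the Igkc-rich libraries 12 were higher (2.5% of all genes), Ighm, Ighj1 and Ighj2 among them, and 1 was lower (2.45%), Igkc. Voom called 15 higher (7.25% of all genes) and 0 lower (6.81%), with 16 lower at edgeR's unadjusted p (11.2%), and DESeq2 called 13 higher (6.6%) and 11 lower (6.89%). The fall of Igkv15-103 (log2 -10.34 ± 2.08, edgeR adjusted p = 0.00277) turned to 3.40 without those libraries (edgeR adjusted p = 0.655).

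The Ighv1 segments were steadier. Ighv1-77 had 175, 182 and 182 reads in MPP4 KO libraries, against 439, 364 and 437 reads in MPP4 WT libraries, and at most 19 reads in any MPP3 library. Ighv1-82 had 96, 139 and 147 reads in MPP4 KO libraries, against 335, 265 and 307 reads in MPP4 WT libraries, and at most 3 reads in any MPP3 library. Every MPP4 library lay above every MPP3 library for both. Ighv1-77 was higher in MPP4 than in MPP3 by 5.49 ± 0.62 on the log2 scale (edgeR adjusted p = 1.02e-05), Ighv1-82 by 7.15 ± 0.62 (edgeR adjusted p = 6.14e-06), Ighv1-74 by 5.31 ± 0.61 (edgeR adjusted p = 1.44e-05) and Ighv1-76 by 7.02 ± 0.75 (edgeR adjusted p = 3.80e-05). Without the Igkc-rich libraries these were 5.36, 6.51, 5.12 and 7.18. Ighv1-82 had 0 reads in LT-HSC, at least 468-fold below MPP4, and Ighv1-23 likewise at least 341-fold.

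The comparison of KO with WT asks whether the loss of Helios goes with a change in these genes. Of the 37 tested members none passed edgeR's adjusted p in any population. In LT-HSC 0 were higher (0.0184% of all genes) and 0 lower (0.0429%), in MPP3 0 higher (0.00613%) and 0 lower (0%), and in MPP4 0 higher (0.0123%) and 0 lower (0%). At an unadjusted p under 0.05 edgeR had 0 higher (6.35% of all genes) and 0 lower (4.88%) in LT-HSC, 0 higher (1.68%) and 9 lower (2.92%) in MPP3, and 0 higher (2.32%) and 0 lower (1.68%) in MPP4. DESeq2 called 1 member lower in MPP3 (0.109% of all genes), Ighv1-69, and 0 higher (0.115%). In LT-HSC DESeq2 called 0 higher (0.631%) and 0 lower (0.704%), and in MPP4 0 higher (0.144%) and 0 lower (0.0813%). Voom called 0 members in LT-HSC (0.153% of all genes higher and 0.049% lower), in MPP3 (0.00613% each way) and in MPP4 (0.00613% higher and 0.0123% lower). The authors' deposited table has 4 members lower in MPP3 at an adjusted p under 0.05, Ighj4, Ighv6-3, Igkv1-117 and Ighv1-69 (0.164% of all genes with an adjusted p there), and 0 higher (0.0786%). The authors' deposited table has 0 members higher or lower in LT-HSC (0.748% and 0.894% of all genes) and in MPP4 (0.0933% and 0.0622%).

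Of the 3 Igkc-rich MPP3 libraries, 1 is KO and 2 are WT. Ighm differed by -1.43 ± 1.010, Igkc by -0.91 ± 1.20 and Jchain by -1.55 ± 1.18 on the log2 scale (each with an edgeR adjusted p of 1). These values hang on single libraries. Without MPP3 KO 1 they were -4.63 for Ighm, -5.10 for Igkc and -4.26 for Jchain. Without all 3 Igkc-rich libraries, which leaves KO 2 and KO 3 against WT 3 as the lone WT library, Ighm stood at -1.31, Igkc at 0.15 and Jchain at 2.09. None of these passed edgeR's adjusted p. The median over the 37 was -1.26, or -1.28 with bounds over the 34 with a value, against 0.00 over all genes. Ighv1-69 had 0, 0 and 0 reads in MPP3 KO libraries, against 122, 208 and 1 reads in MPP3 WT libraries, at least 124-fold lower in KO (edgeR adjusted p = 0.544, DESeq2 adjusted p = 0.00205). Of its 331 reads in MPP3 WT, all but 1 were in WT 1 and WT 2. In 4 of the 37, Ighj3, Ighv1-69, Ighv1-74 and Ighv1-76, the 3 KO libraries of MPP3 lay below the 3 WT libraries (5.62% of all genes did), and in 0 above them (5.01%). In LT-HSC 0 members lay apart in either direction (9.15% of all genes higher and 6.14% lower).

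In MPP4 Ighm and Ighd differed by less than the spread between libraries, and several Ighv1 segments had lower values in every KO library. Ighm averaged 855 ± 254 CPM in MPP4 KO libraries and 1049 ± 194 CPM in MPP4 WT libraries (SD, n = 3 each), and Ighd 17.7 ± 4.59 and 18.8 ± 5.55 CPM. The log2 differences were -0.29 ± 0.99 for Ighm and -0.09 ± 0.51 for Ighd. Ighe was at 0.299, 0.557 and 1.43 CPM in MPP4 KO libraries, against 3.09, 1.42 and 1.38 CPM in MPP4 WT libraries. Its groups overlapped and its difference of -1.36 ± 1.36 did not pass either (edgeR adjusted p = 1). Ighv1-77 was at 6.54, 8.45 and 7.23 CPM in KO libraries, against 16.3, 12.1 and 15.9 CPM in WT libraries. Ighv1-74 was at 6.24, 5.43 and 3.81 CPM in KO libraries, against 15.7, 8.35 and 9.27 CPM in WT libraries. Ighv1-82 was at 3.59, 6.45 and 5.84 CPM in KO libraries, against 12.5, 8.78 and 11.2 CPM in WT libraries. For each of these 3 all KO libraries lay below all WT libraries. The differences were -0.99 ± 0.70, -1.11 ± 0.71 and -1.03 ± 0.63 on the log2 scale, and none passed the test (edgeR adjusted p = 1 for each).

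The groups were apart in this way, lower in KO, for 9 of the 37 in MPP4 (4.02% of all genes), namely Ighv1-56, Ighv1-58, Ighv1-62-1, Ighv1-69, Ighv1-74, Ighv1-75, Ighv1-77, Ighv1-80 and Ighv1-82, and for 0 in the other direction (3.96%). Of the stretches of 50 bases in these 9 segments, 4.30% (Ighv1-58) to 48.7% (Ighv1-62-1) occur in a transcript of another gene. Some had few reads: Ighv1-62-1 was at 0.523, 0.186 and 0.278 CPM in KO libraries, against 1.41, 0.662 and 0.872 CPM in WT libraries. Such a segment may have passed the filter on low counts through the WT libraries alone. The 9 may also share reads, so their count describes them and supports nothing. Ighv1-23 overlapped, at 6.66, 5.29 and 3.65 CPM in KO libraries, against 9.23, 5.76 and 4.65 CPM in WT libraries. The 20 tested variable segments had a median of -0.92 in MPP4, with 16 of them below 0. The medians were -0.22 for the constant and -0.01 for the joining segments and 0.00 for all genes. With bounds, over the segments with a value, they were -0.95 for 17 variable, -0.26 for 4 constant and -0.02 for 5 joining segments. The constant and joining sets without bounds include light-chain segments with few reads in MPP4. Summed, the 63 variable members were at 32.9, 36.8 and 28.8 CPM in MPP4 KO libraries, against 74.8, 50.4 and 54.7 CPM in MPP4 WT libraries. The constant members were at 875 ± 259 CPM in KO libraries and 1071 ± 201 CPM in WT libraries (SD, n = 3 each). Beside this, Rag2, a subunit of the recombinase, was at 29.3, 16.2 and 23.3 CPM in KO libraries, against 52.5, 49.9 and 43.5 CPM in WT libraries, and Sdc1, a surface proteoglycan, at 71.6, 64.2 and 75.1 CPM in KO libraries, against 171, 117 and 153 CPM in WT libraries. Neither passed edgeR's adjusted p, and the 15 genes of V(D)J recombination, Rag2 among them, had 5 values above and 10 below 0 with a median of -0.09 in MPP4 KO against WT. Rag2 and Sdc1 were picked after their values were seen. Their part in the values of the variable segments was not tested.

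**Figure D4:**
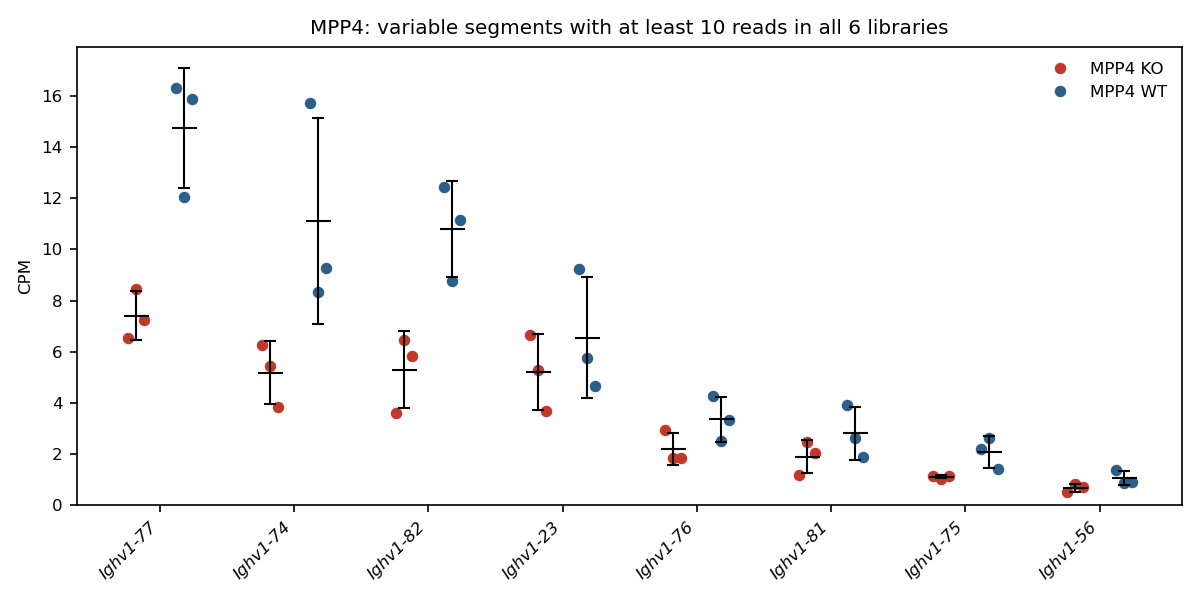
CPM of the 8 Ighv1 segments present in all MPP4 libraries, with points for the 3 KO libraries left of the 3 WT libraries, and their mean and SD. For Ighv1-77 the KO points lie at 6.54 to 8.45 CPM, below the WT points at 12.1 to 16.3 CPM, whereas for Ighv1-23 the points overlap.

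The difference between populations in the KO effect was tested as an interaction. By edgeR's adjusted p, 0 members differed in MPP3 against LT-HSC, in MPP4 against LT-HSC or in MPP4 against MPP3 (0% of all genes in each direction). Voom called 0 members as well, with 0 of 16325 genes in each direction, and DESeq2 called 0 members. Over all genes DESeq2 called 3 higher and 1 lower of 16299 in MPP3 against LT-HSC, and 21 and 11 of 15040 in MPP4 against LT-HSC. In MPP4 against MPP3 DESeq2 called 6 and 5 of 15983. At an unadjusted p under 0.05 edgeR had 2 members with a lower effect in MPP3 than in LT-HSC (2.05% of all genes), and 6 with a higher effect in MPP4 than in MPP3 (2.07% of all genes). In MPP4 against LT-HSC edgeR had 0 members at that p, where 528 of all 16325 genes were higher and 558 lower. In LT-HSC, Ighm differed by -0.72 between KO and WT (edgeR adjusted p = 0.900).

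Genes that mark other cells were read beside these values. Pou2af1, the coactivator of octamer promoters in the B lineage, was at 3.60 CPM in MPP3 KO 1, 5.79 CPM in WT 1 and 4.87 CPM in WT 2, and at 0 to 0.0748 CPM in the other 3 MPP3 libraries. Mzb1, a chaperone of IgM assembly, was at 3.01, 3.82 and 1.89 CPM in the Igkc-rich libraries and at 0.0723 to 0.337 CPM in the other MPP3 libraries. Tnfrsf17, a receptor of plasma cells, was at 1.11, 1.10 and 0.504 CPM in them and at 0.0362 to 0.0381 CPM in the other MPP3 libraries. These 3 markers, picked from the 18 of the plasma cell list after their values were seen, were higher in the libraries high in Igkc. The genes of that list with the most reads were Txndc5, Edem2 and Xbp1, whose single values are not given here. Together the 18 plasma cell markers stood at 1398, 1118 and 1233 CPM in MPP3 KO libraries, against 1388, 1331 and 1260 CPM in MPP3 WT libraries. The part of such cells in the MPP3 values was not tested.

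Of the B cell precursor list, 10 of 16 tested genes were higher in MPP4 than in LT-HSC and 0 lower (median 2.73), where 19% of all genes were higher and 18.6% lower. In MPP4 against MPP3, 9 were higher and 1 lower (median 2.41), where 5.42% of all genes were higher and 5.57% lower. Dntt, the polymerase that adds bases at the joints, was at 4093, 1789 and 1679 CPM in MPP4 KO libraries, against 3610, 3076 and 2458 CPM in MPP4 WT libraries, and at 67.7 to 153 CPM in MPP3. Dntt was higher in MPP4 than in MPP3 by 4.67 on the log2 scale, and Rag2 by 4.26. Pax5, the factor that commits cells to the B lineage, was at or near 0 in all 18 libraries, with at most 0.257 CPM. Ms4a1, which encodes CD20, was at 0 in all 6 MPP4 libraries, and its values in the other libraries are not given here. Pax5 and Ms4a1 were picked after their values were seen. Ms4a1 is of the mature B cell list, of which 7 of 16 tested genes were higher and 0 lower in MPP4 than in MPP3. Together the precursor genes stood at 4639, 2225 and 2091 CPM in MPP4 KO libraries, against 4140, 3627 and 2932 CPM in MPP4 WT libraries, most of it Dntt.

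The other lists, in MPP4 against MPP3, had these counts of called genes, to be read against the same 5.42% and 5.57% of all genes. Mature B cell markers had 7 higher and 0 lower of 16 (median 0.57), plasma cell markers 1 higher and 2 lower of 18 (median -0.13), and plasmacytoid dendritic cell markers 7 higher and 1 lower of 14 (median 1.96). T and NK cell markers had 1 higher and 4 lower of 10 (median -0.25), mature neutrophil markers 0 and 0 of 13 (median -1.74), red cell precursor markers 0 higher and 4 lower of 10 (median -1.58), and stem and progenitor markers 4 higher and 7 lower of 14 (median -0.39). Genes of V(D)J recombination had 4 higher and 1 lower of 15 (median 0.08), and transcription factors of immunoglobulin loci 4 higher and 2 lower of 17 (median 0.18). The median over all genes was -0.01. None of the lists had a called gene in KO against WT in any population.

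The genes outside the family whose level over the 18 libraries was most like that of Igkc, by Spearman's rho of log2(CPM + 0.5), were Rnase12 (0.84), Car1 (0.83), Cma1 (0.82), Gzmb (0.82) and Rhd (0.82). For Jchain they were Tmem215 (0.90), Prss50 (0.84), Grb2 (0.83), Inpp5b (0.83) and Cma1 (0.83), and for Ighm they were Pik3r6 (0.91), Gnptab (0.91), Slc2a6 (0.90), Ivd (0.90) and Ly6d (0.90). These are descriptions over libraries that share animals and populations.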

How the data were processed

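RNA was measured in 18 libraries, 3 sorted populations from each of 3 KO and 3 WT mice, which are separate animals. Per the labels' protocols, 10000 to 40000 cells were sorted, and 1000 pg of RNA and 600 pg of cDNA entered SMART-Seq v4 and Nextera XT with 12 cycles of PCR per step. The authors deposited, per the file headers, raw counts per gene, a normalized signal, the same signal per kb of each gene's median transcript, and their own log2 fold changes and p-values for KO against WT. Per the submitters' processing notes, bcl2fastq 2.17.1.14, DESeq and mm10 were used. The sources used here do not give the aligner, counter, annotation release, strand setting or treatment of reads that match several genes, so reads of overlapping or near-identical segments may be split between them.

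The deposited counts were fitted in R 4.3.3 with edgeR 4.0.16 (filterByExpr, TMM, glmQLFit and glmQLFTest) over all 18 libraries with 6 group means, and p-values were adjusted over 16325 genes. CPM values are counts scaled by the TMM library sizes. The alternatives were DESeq2 1.42.0, voom in limma 3.58.1 blocked on the mouse, RLE scaling, no filter on low counts, the replicate block, only the libraries of a contrast, the libraries numbered 2 and 3 alone and leave-one-out fits. Leaving out the 3 MPP3 libraries rich in Igkc was added after seeing the data. On simulated counts for KO against WT in LT-HSC, with 15476 genes tested, the fit recovered 50% of genes changed by 2 on the log2 scale and 2.1% of those changed by 1, with 0 false calls.

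The members, the marker lists and the tests were chosen with earlier results of these data known. Genes named are all constant members and Jchain, the variable, joining and diversity segments with most reads, the leading heavy and kappa variable segment of each library with at least 50 variable reads, up to 5 members per direction with the smallest adjusted p in each contrast, the 5 genes most like Igkc, Jchain and Ighm, and up to 3 genes of each marker list. Igkv12-44, Ighv1-69, Pax5, Ms4a1, Pou2af1, Mzb1, Tnfrsf17, Rag2 and Sdc1 were chosen after their values were seen. So were the segments named because their groups did not overlap, or for their position and reads in the heavy locus. Populations of one mouse come from the same animal, per the labels, and their deviations from the group means correlated at 0.041 to 0.182. KO and WT mice share only a number. Segment sequences are from GENCODE M21 (GRCm38), where all 86 members had the coordinates of the deposited table.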

Additional observations from a re-analysis of the deposited data

How the results depend on the processing

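Of the results that count members, 302 values stayed within 1.5 times the main count and 14 moved. The main count was 0 for KO against WT, for the interactions and for members lower than in LT-HSC. For these results staying the same mostly compares 0 with 0, so the tally says little about stability. The members lower in MPP3 KO than in WT numbered 0, and 1 with no filter on low counts, 1 with DESeq2 and 0 to 1 with each replicate left out. The members higher in MPP3 than in LT-HSC numbered 27, against 10 with the libraries numbered 2 and 3, 9 without the Igkc-rich libraries, 11 with limma's voom and 20 to 32 with each replicate left out. For MPP4 against MPP3, the higher members numbered 14, against 9 with the libraries numbered 2 and 3 and 11 to 12 with each replicate left out. The lower members numbered 14, against 22 with no filter, 2 with the libraries numbered 2 and 3, 1 without the Igkc-rich libraries, 0 with voom and 7 to 20 with each replicate left out, the 7 without MPP3 KO 1 and 8 each without MPP4 WT 1 and MPP4 WT 2. The cause was not tested, beyond the smaller number of samples. The share of all genes called is not given with no filter, with the libraries numbered 2 and 3 or with each replicate left out. The counts of members under these fits therefore have no background to be read against.

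In KO against WT, Igkc in MPP3 turned to 0.15 and Jchain to 2.09 without the Igkc-rich libraries, which leaves 2 KO libraries against WT 3 alone, a lone library assumed to vary like the other groups, and Ighd in MPP4 turned to 0.10 without KO 3 and 0.16 without WT 1 (range -0.28 to 0.16). In MPP4 against MPP3, Igkv15-103 turned to 3.40 without the Igkc-rich libraries. Ighm there, at 0.04, ran from -0.23 to 1.64 with each replicate left out: -0.22, -0.23 and -0.23 without MPP3 KO 2, KO 3 and WT 3, -0.09 without MPP4 KO 1 and -0.03 without MPP4 WT 1.

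With the replicate block, which pairs the populations of a mouse, 26 members were higher in MPP3 and 22 in MPP4 than in LT-HSC, and 12 higher and 16 lower in MPP4 than in MPP3. With the number as a block for KO against WT, which share only a number (r 0.0084 to 0.0972), no member was called. The share of all genes called is not given for either block, so these counts have no background to be read against.

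The self-test was run for LT-HSC KO against WT only, and its recovery in MPP4 is not known. An exact permutation test of 3 against 3 cannot go below 0.1.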

Other observations

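Variable pseudogenes, which were no members, followed the MPP4 pattern. The 24 of them in the table had 160, 141 and 105 reads in MPP4 KO libraries, against 248, 194 and 144 reads in MPP4 WT libraries, with 7 to 29 reads in each MPP3 library and 0 to 5 in each LT-HSC library.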
